A study of Xenopus laevis with 18 samples.

Results

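The genes described here code for the Wnt signalling machinery of the Xenopus laevis embryo: Wnt ligands, their receptors, the secreted proteins that bind ligand or receptor, and the cytoplasmic and nuclear proteins that carry the signal. They were taken by gene symbol, as every probe set whose single annotated symbol begins with wnt, fzd, sfrp, frzb, dkk, lrp5, lrp6, axin1, axin2, lef1, tcf7, sp5, dvl, dact, ror2 or ryk. This gave 84 of the 32475 probe sets tested, for 59 genes, with homeologs counted separately, of the 11303 genes that a single symbol names. Xenopus laevis is an allotetraploid, so many genes exist as a pair of homeologs written .L and .S, and joining them leaves 48 genes. The probe sets divide into 18 of 14 ligand genes, 25 of 16 receptor genes, 14 of 11 genes of secreted antagonists, 12 of 10 genes of cytoplasmic components and 15 of 8 genes of nuclear effectors. Of the 59 genes, 43 had 1 probe set and 16 had several, up to 5 for fzd7.L and tcf7l2.L.

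Wnt ligands bind Frizzled receptors together with the co-receptors Lrp5 or Lrp6 and, through Dishevelled, stop a complex built on Axin from degrading beta-catenin, which then acts in the nucleus with factors of the Lef and Tcf family. Other ligands, among them Wnt5a and Wnt11, signal largely without beta-catenin, through Ror2 and Ryk among others, and steer cell polarity and movement. In the frog gastrula, zygotic Wnt8 in the lateral and ventral marginal zone opposes the organizer, which secretes antagonists such as Frzb and Dkk1. Wnt ligands such as Wnt4 act later in the pronephros, the embryonic kidney that forms from lateral mesoderm.

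RNA came from explants of the lateral marginal zone and was hybridised to Affymetrix arrays from 6 µg of total RNA each. Arrays labelled RA-depleted carried explants of embryos injected with GFP mRNA and mRNA of cyp26, an enzyme that degrades retinoic acid (RA), and arrays labelled control carried explants injected with GFP mRNA alone. Injection was into the blastomeres of the 4-cell embryo, so GFP mRNA was shared by both arms. Each arm has 3 arrays per stage, where early gastrula explants were cultured for 1 h at 20 °C, mid-gastrula explants for 3 h at 20 °C and early neurula explants overnight at 14 °C, which makes 6 groups and 18 arrays. The labels call the 3 arrays of a group biological replicates, without saying whether embryos were pooled or what arrays of the same number share. Values are log2 intensities, on which 1 unit is a 2-fold change.

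Of 3 cyp26a1 probe sets, 1 was lower and 2 were higher in the arm labelled RA-depleted. The bright probe set of cyp26a1.S differed by -4.79, -5.34 and -4.14 over the stages (limma adjusted p = 7.36e-08, 1.54e-08 and 2.96e-07). The probe set of cyp26a1.L differed by 1.82, 1.99 and 1.53, and the dim one of cyp26a1.S by 0.72, 1.39 and 1.38, with adjusted p between 0.0702 and 1. The labels do not say which cyp26 gene was injected. Whether a probe set reads the injected mRNA or the RNA of the embryo's own gene is not known. These values therefore do not settle whether the labels hold, and the arms keep their labelled names here. Every difference below is the arm labelled RA-depleted minus the arm labelled control, and each sign would turn if the labels were exchanged. The median level over all probe sets was 5.88 in early gastrula arrays, 5.5 in those of mid-gastrula and 5.49 in those of early neurula. Of the 84 probe sets, 52 reached a log2 value of 6 on at least 3 arrays, among them only 6 of the 18 for ligands, against 17 of 25 for receptors. The remaining 32 were dim, and small differences of dim probe sets carry little weight. A level cannot be compared between probe sets, and a probe set may also bind the RNA of the other homeolog. In bulk tissue, fewer cells of a type and less RNA per cell cannot be told apart.

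At early neurula, sfrp2.S separated the arms. It encodes a secreted Frizzled-related protein, which binds Wnt ligands outside the cell. Its log2 values were 10.4, 10.03 and 10.66 on the arrays labelled RA-depleted, against 9.19, 8.87 and 9.39 on those labelled control. Each array labelled RA-depleted lay above every array labelled control, and the same-numbered pairs differed by 1.21, 1.17 and 1.28. The difference was 1.22 (SE 0.19, n = 3 per group), which is 2.33-fold, with a limma adjusted p of 0.00524. Fitting the 6 neurula arrays alone, so that no spread is borrowed from the other stages, left the difference as it was but gave an adjusted p of 0.352.

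sfrp2.S was the only member called at this stage without regard to replicate number, 1 of 84 (1.19%), against 0.425% of all probe sets. A call is a Benjamini-Hochberg adjusted p under 0.05 over all 32475 probe sets. At an unadjusted p under 0.05, 15 members passed (5.62% of all probe sets). Over the members the median difference was -0.04 with 36 of 84 above 0, and over all probe sets the median was -0.01. By role, the medians were -0.08 for ligands, 0.01 for receptors, -0.02 for secreted antagonists, -0.01 for cytoplasmic components and -0.06 for nuclear effectors. Only 6 of the 84 differed by more than 0.5 in either direction.

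**Figure D1:**
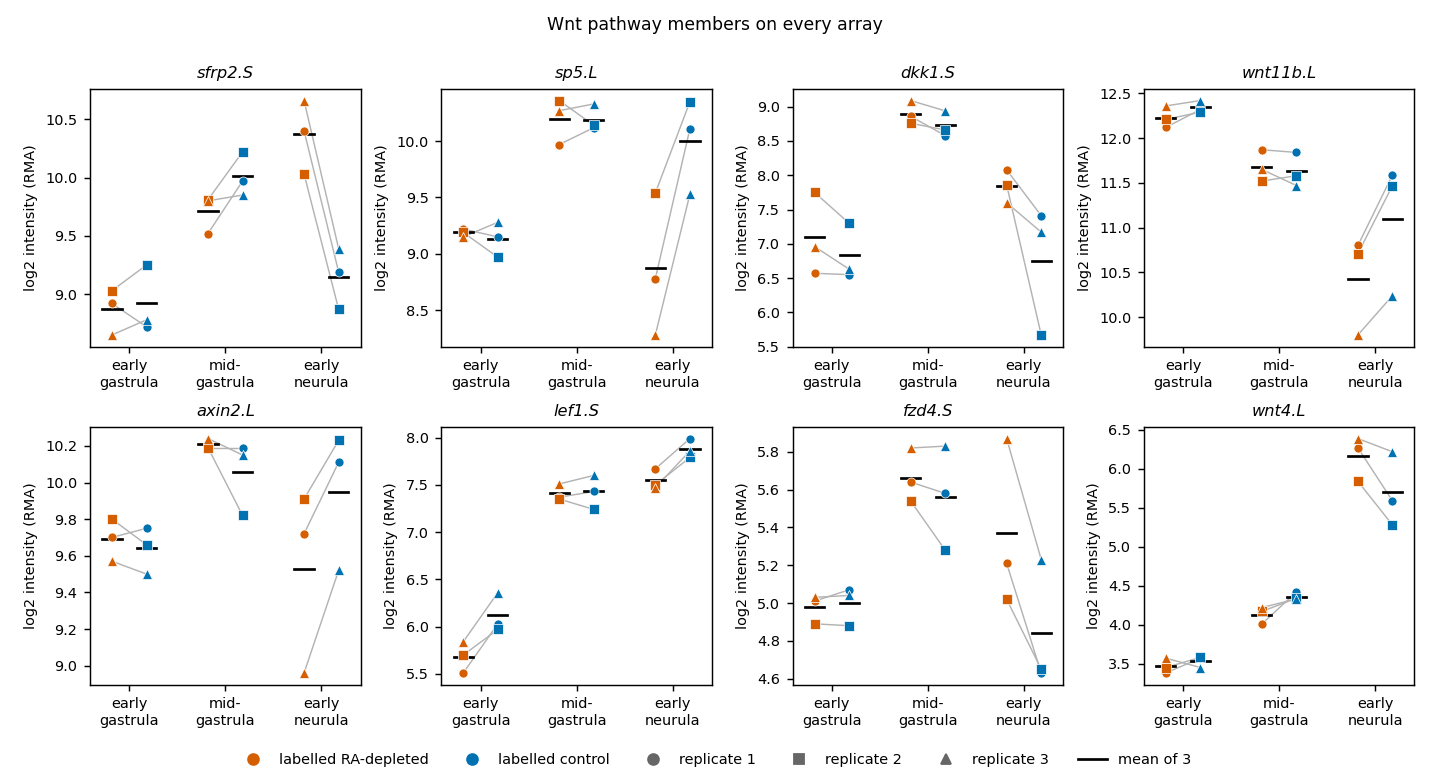
Log2 intensity on every array for 8 member probe sets, with the stage on the horizontal axis and the arms labelled RA-depleted and control side by side. At early neurula the values of sfrp2.S do not overlap between the arms, with the lowest array labelled RA-depleted at 10.03 and the highest labelled control at 9.39.

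Same-numbered arrays of a stage were alike beyond their group, and comparing them pair by pair narrowed the error. With each stage and number taken as a block, 12 members were called at early neurula (14.3%), against 4.33% of all probe sets. Of these 4 were higher (2.47% of all probe sets were) and 8 were lower (1.86% of all). The higher members were a pair of antagonists, sfrp2.S and dkk1.S, the receptor gene fzd4.S and the ligand gene wnt4.L. The lower members were the 3 probe sets of sp5l.S, with sp5.L, lef1.S, axin2.L, frzb.L and wnt11b.L. Probe sets of the same gene are not independent, and members were chosen with earlier results of these data known. The pairing was also read from these values. Shares of members called with pairs, here and below, are therefore no test of the pathway as a set. With the replicate number alone as a block, shared by all stages, 2 members were called, sfrp2.S and sp5.L, against 1.14% of all probe sets.

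The transcription factor genes sp5 and sp5l are direct targets of Wnt and beta-catenin signalling in vertebrates. sp5.L read 8.78, 9.54 and 8.28 on the neurula arrays labelled RA-depleted and 10.11, 10.35 and 9.53 on those labelled control. One array of each arm met in the middle, at 9.54 and 9.53, yet within each pair the array labelled RA-depleted was lower, by 1.33, 0.82 and 1.25. The difference of -1.13 (SE 0.25, 2.19-fold lower) had a limma adjusted p of 0.0736 unblocked, 0.0292 with the replicate number as a block and 0.000237 with pairs within the stage. It was called in the unblocked fit when array 2 labelled RA-depleted (-1.47, adjusted p = 0.00334) or array 3 labelled control (-1.37, adjusted p = 0.022) was left out. Each of these fits keeps the same-numbered partner of the array left out, and its difference is wider than that of any pair. They therefore add no support to the call with pairs.

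The related sp5l.S differed less. Its brightest probe set read 13.09, 13.16 and 13.14 in explants labelled RA-depleted, against 13.32, 13.38 and 13.4 in those labelled control. The groups did not overlap on any of its 3 probe sets, whose differences were -0.24, -0.24 and -0.30 (limma adjusted p = 0.0374, 0.0296 and 0.0183 with pairs within the stage, and 0.141, 0.33 and 0.227 unblocked). sp5.S, the homeolog of sp5.L, was dim and read -0.31 (adjusted p = 1).

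axin2 is another direct target of the beta-catenin branch and encodes a part of the complex that degrades beta-catenin. axin2.L read 9.72, 9.91 and 8.96 on the arrays labelled RA-depleted and 10.11, 10.23 and 9.52 on those labelled control. Array 3 was the lowest of each arm, as it was for sp5.L and wnt11b.L, and each pair gave a negative difference. The difference was -0.42 (SE 0.21, limma adjusted p = 0.962 unblocked and 0.0154 with pairs within the stage). The brighter probe set of axin2.S read -0.36 and the other -0.30, neither called in any of these fits.

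lef1.S encodes the nuclear partner of beta-catenin that activates target genes. It read 7.67, 7.5 and 7.47 in neurula explants labelled RA-depleted and 7.99, 7.79 and 7.86 in those labelled control, with no overlap. The difference of -0.33 (SE 0.12) had a limma adjusted p of 0.571 unblocked and 0.0217 with pairs within the stage. No Tcf gene was called: tcf7l1.L and tcf7l1.S, whose product represses targets in the absence of signal, both read 0.01, and the 2 probe sets of tcf7.S read -0.06 and -0.03. The 5 probe sets of tcf7l2.L lay between -0.13 and 0.27, and the one that came nearest to a call (Xl2.51414.2.A1_at, 0.27, SE 0.10) was higher in each pair, with a limma adjusted p of 0.581 unblocked and 0.0846 with pairs within the stage.

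Among ligands, wnt11b.L, which drives convergent extension in the gastrula, read 10.8, 10.71 and 9.8 on the neurula arrays labelled RA-depleted and 11.59, 11.47 and 10.24 on those labelled control. The groups overlapped because array 3 was low in both arms, while the pairs differed by -0.79, -0.77 and -0.45. The difference was -0.67 (SE 0.30), with a limma adjusted p of 0.832 unblocked and 0.000941 with pairs within the stage. Without array 3 labelled control it was -1.1 and was called in the unblocked fit (adjusted p = 0.0449). That fit keeps the low array 3 labelled RA-depleted without its partner, and its difference is wider than that of any pair. It therefore adds no support to the call with pairs.

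wnt4.L, a ligand needed for pronephric tubules in Xenopus, went the other way. Its values were 6.27, 5.84 and 6.39 in explants labelled RA-depleted and 5.59, 5.28 and 6.22 in those labelled control, so that a single control array reached into the range of the other arm. The difference was 0.47 (SE 0.18, limma adjusted p = 0.641 unblocked and 0.0266 with pairs within the stage). The ventral and lateral ligand gene wnt8a.L read 0.03 (SE 0.17), wnt5a.S -0.14 (SE 0.21) and wnt3a.S 0.05 (SE 0.09), none of them called.

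dkk1.S encodes Dickkopf-1, which binds Lrp5 and Lrp6 and blocks the beta-catenin branch. The dimmer of its 2 probe sets by mean over the arrays (Xl2.10134.1.A1_at) read 8.08, 7.86 and 7.6 on the neurula arrays labelled RA-depleted and 7.41, 5.67 and 7.17 on those labelled control. The groups did not overlap, but the pair differences were uneven, at 0.67, 2.19 and 0.43, because array 2 labelled control was far below the others. The difference was 1.10 (SE 0.38, limma adjusted p = 0.486 unblocked and 0.037 with pairs within the stage), and 0.56 without that array. The brighter probe set read 0.96 (SE 0.33, adjusted p = 0.479 and 0.0531 in the same fits).

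The antagonist gene frzb.L, for a Frizzled-related protein of the organizer, read 7.72, 7.43 and 8.28 in explants labelled RA-depleted and 8, 7.9 and 8.87 in those labelled control. Each pair was lower in the arm labelled RA-depleted although the groups overlapped (-0.45, SE 0.24, limma adjusted p = 1 unblocked and 0.0375 with pairs within the stage). The homeolog frzb.S read -0.32 (SE 0.37). So the antagonists called with pairs did not move one way: sfrp2.S and dkk1.S were higher and frzb.L was lower.

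Of the receptors, fzd4.S read 5.21, 5.02 and 5.87 on the neurula arrays labelled RA-depleted and 4.63, 4.65 and 5.23 on those labelled control, all dim. The arms overlapped, and within each pair the array labelled RA-depleted was higher. The difference was 0.53 (SE 0.20), with a limma adjusted p of 0.634 unblocked and 0.00224 with pairs within the stage. The other 24 receptor probe sets lay between -0.31 and 0.22, and none was called. The co-receptor gene lrp5.L read 0.22 (SE 0.12) without overlap of the arms, and the 2 probe sets of lrp6.L read 0.01 and -0.03. ror2.L (0.15, SE 0.14), ryk.L (-0.12, SE 0.10) and ryk.S (0.04, SE 0.15), receptors outside the beta-catenin branch, and the 5 probe sets of fzd7.L, between -0.14 and 0.11, did not pass either.

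Without overlap between the arms were 6 members higher (4.4% of all probe sets were) and 7 lower (5.1% of all probe sets). Beside those already named, these were fzd2.S at 0.20, the dimmer probe set of wnt6.S at 0.07, fzd1.L at -0.16, wnt2b.L at -0.31 and the dimmer probe set of axin2.S at -0.30. Of these fzd1.L, wnt2b.L and the probe set of wnt6.S were dim. The brighter probe set of wnt6.S, also dim, read -0.08 with overlap.

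**Figure D2:**
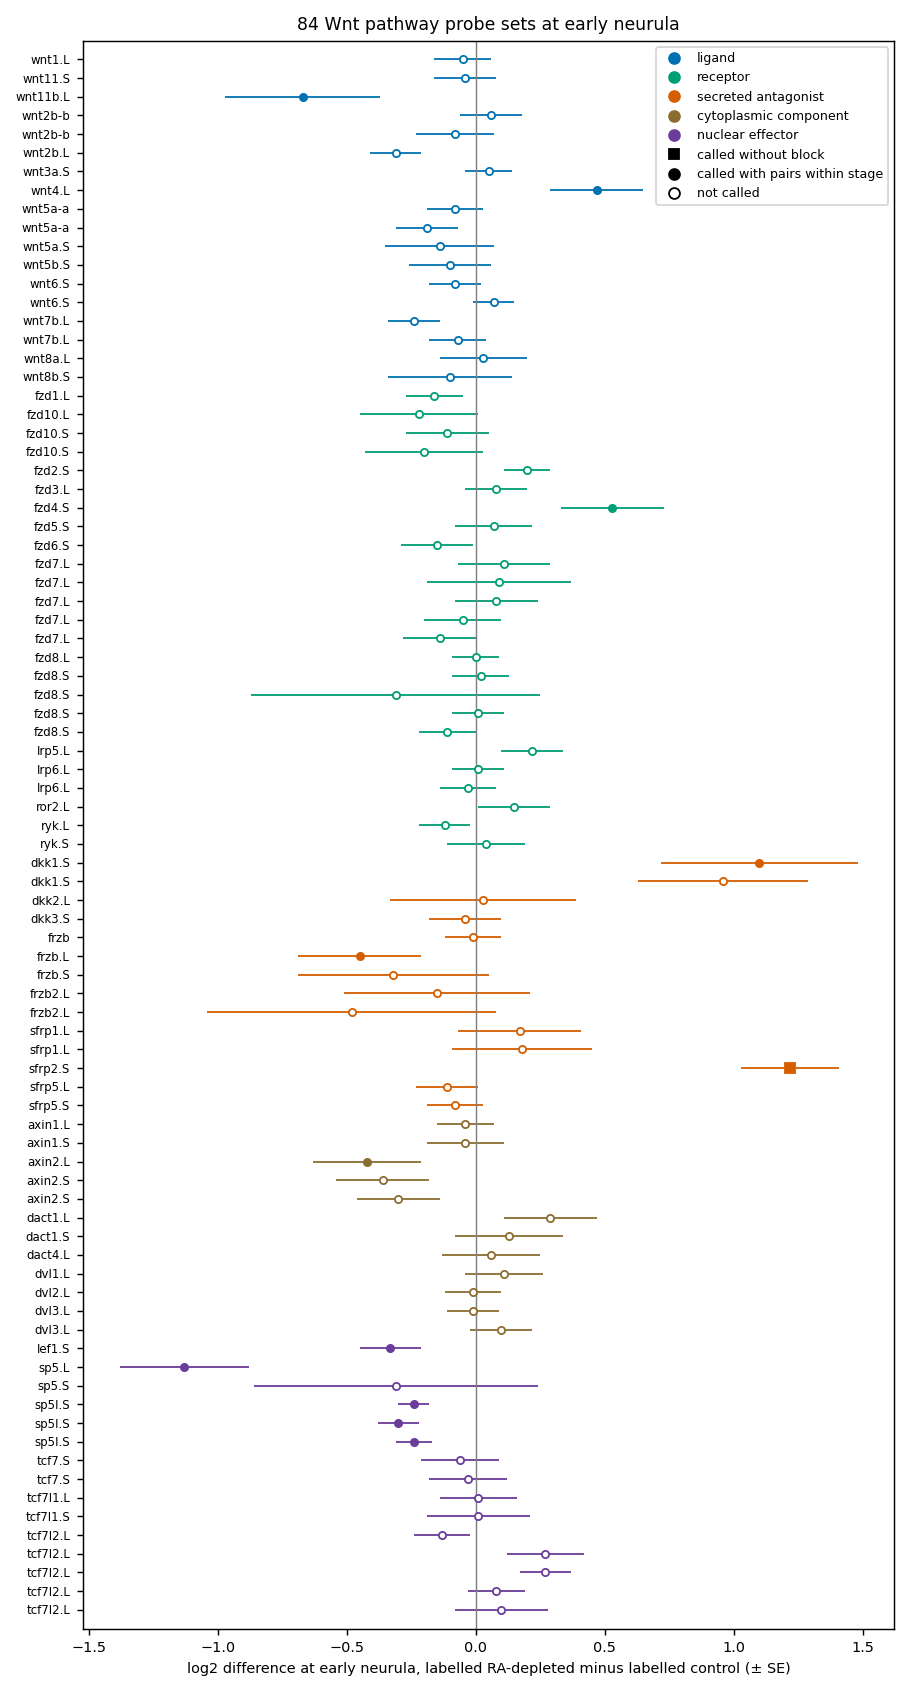
Difference at early neurula (labelled RA-depleted minus labelled control, log2) with its standard error for all 84 member probe sets, grouped by role, where a square marks the unblocked call and a filled symbol a call with pairs within the stage. sfrp2.S at 1.22 and sp5.L at -1.13 stand at the ends, and 63 of the 84 lie within 0.25 of 0.

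Markers of the tissues that an explant can hold were measured beside these results. Of 5 pronephric and lateral mesoderm genes, 4 were higher in neurula explants labelled RA-depleted and 1, the kidney field regulator lhx1.L, was called (2.0, SE 0.27, limma adjusted p = 0.00234). The mean log2 level of the 5 ranged over the arrays from 6.16 to 6.72 in the arm labelled RA-depleted and from 5.53 to 5.98 in the arm labelled control. That of 5 muscle genes ranged from 10.28 to 10.66 and from 9.81 to 10.69, and that of 7 neural genes from 6.22 to 6.4 and from 6.3 to 6.4, in the same order, with none called. The mean of the 2 ventral and blood genes, both lower, ranged from 6.78 to 7.0 in the arm labelled RA-depleted and from 7.14 to 7.33 in the arm labelled control, also without overlap, with none called. With the replicate number as a block the kidney gene osr2.L (0.74, limma adjusted p = 0.00312) and the endoderm gene foxa1.L (0.54, adjusted p = 0.0336) were called as well. The lists for 7 endoderm, 7 epidermis and 6 organizer genes overlapped between the arms at this stage. At mid-gastrula the 7 endoderm genes were all lower, none called, with means of 10.01 to 10.34 in the arm labelled RA-depleted and 10.41 to 10.65 in the arm labelled control. The part of tissue make-up in the Wnt differences was not tested.

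The gastrula stages showed no called member. At early gastrula limma called 0 of 84 (0.00308% of all probe sets), also with the replicate number (0.00616% of all) or with pairs (0.037% of all) as blocks, and 3 passed an unadjusted p under 0.05 (1.52% of all). The median difference was -0.01, 35 of the 84 lay above 0, and 78 lay within 0.25 of 0. Without overlap between the arms 4 members were higher (2.16% of all probe sets were), at 0.09 to 0.30, for fzd3.L, axin1.S, sp5l.S and dvl3.L. The other probe sets of sp5l.S, at 0.04 and -0.01, and of dvl3.L, at 0.04, overlapped, and axin1.S was dim. Without overlap 5 were lower (2.94% of all), for lef1.S, wnt8b.S, wnt11.S, wnt7b.L and wnt5a-a, at -0.44 to -0.17. Of these wnt8b.S, wnt7b.L and wnt5a-a were dim. wnt11.S was not counted as dim because of its mid-gastrula values alone. At early gastrula it lay below the level used to set dim probe sets apart, so its small difference carries little weight too. The other probe set of wnt7b.L read 0.01 and that of wnt5a-a -0.08, both with overlap.

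The lowest difference at early gastrula was that of lef1.S. It read 5.51, 5.7 and 5.84 on the arrays labelled RA-depleted and 6.03, 5.97 and 6.36 on those labelled control. Each array labelled control lay above every array labelled RA-depleted. The difference was -0.44 (SE 0.12) with a limma adjusted p of 1 unblocked and 0.0598 with pairs within the stage. At mid-gastrula the difference of lef1.S was -0.01 and the arms overlapped. fzd3.L, a receptor gene known for axon growth and planar polarity, differed by 0.30 (SE 0.12), against 0.35 (SE 0.12) at mid-gastrula, and neither was called.

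At mid-gastrula limma again called 0 members (0.0185% of all probe sets), also with the replicate number (0.037% of all) or with pairs (0.188% of all) as blocks, and 4 passed an unadjusted p under 0.05 (2.28% of all). The median was 0.01 with 46 of 84 above 0. The receptor gene fzd10.L, active in the beta-catenin branch in Xenopus, read 7.6, 7.72 and 7.48 in explants labelled RA-depleted and 7.3, 7.16 and 7.04 in those labelled control (0.44, SE 0.23). The ligand gene wnt5b.S read 8.95, 8.84 and 8.7 in the arm labelled RA-depleted, against 8.69, 8.27 and 8.28 in the arm labelled control (0.42, SE 0.16), with each array labelled RA-depleted above every array labelled control. sfrp2.S stood on the other side of 0 from its neurula difference, at 9.52, 9.81 and 9.8 in explants labelled RA-depleted and 9.97, 10.22 and 9.85 in those labelled control (-0.30, SE 0.19, limma adjusted p = 1). The 2 probe sets of frzb2.L, another Frizzled-related antagonist gene, gave 0.81 and 0.47 at this stage and were not called. Without overlap between the arms 4 members were higher (3.08% of all probe sets), at 0.19 to 0.44, for fzd10.L, wnt5b.S, wnt5a.S and the dimmer probe set of fzd10.S. Without overlap 3 were lower (2.75% of all), namely sfrp2.S, wnt4.L (-0.23, SE 0.18) and fzd6.S (-0.20, SE 0.14), a receptor gene of planar polarity in the mouse. Of the members named here fzd6.S was dim, while wnt4.L and wnt5a.S averaged 4.56 and 4.82 over the 18 arrays and rose only later.

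**Figure D3:**
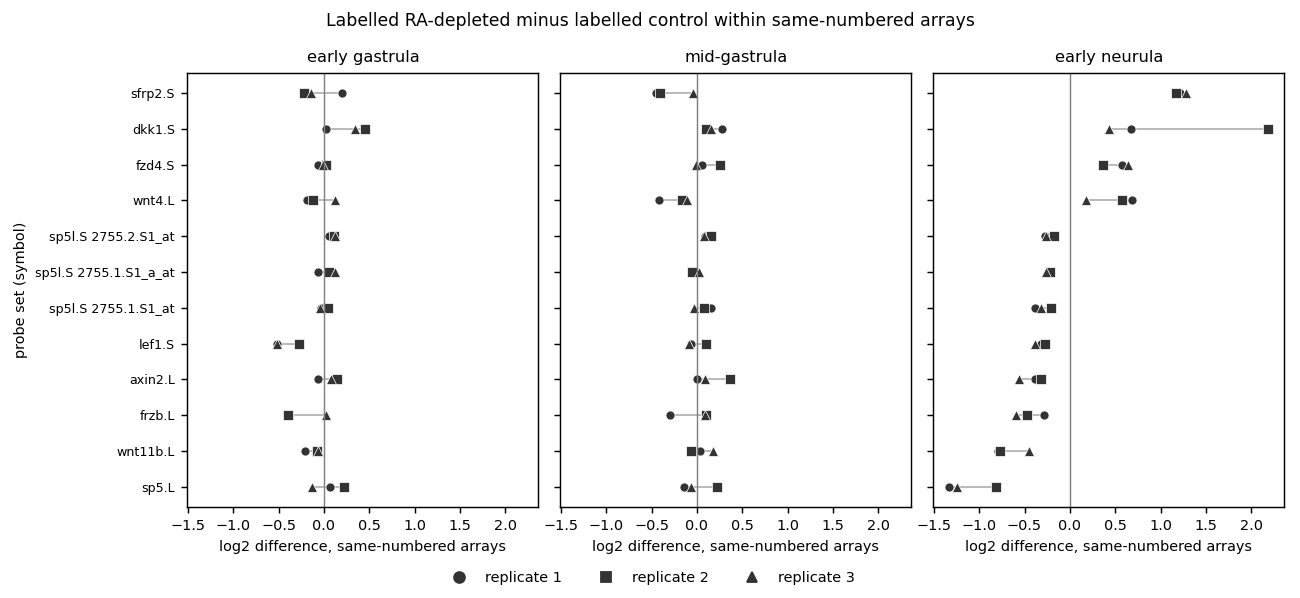
Difference within each same-numbered pair of arrays (labelled RA-depleted minus labelled control, log2) at the 3 stages for the 12 probe sets called at early neurula with pairs within the stage. For sfrp2.S the 3 neurula pairs lie at 1.17 to 1.28 while the mid-gastrula pairs lie at -0.45 to -0.04.

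Whether an arm difference differed between stages was tested on the difference itself. No member was called between early and mid-gastrula by limma unblocked (0.0% of all probe sets), nor with either block, and 1 passed an unadjusted p under 0.05 (1.21% of all). Between mid-gastrula and early neurula none was called unblocked (0.0585% of all), and 7 passed an unadjusted p under 0.05 (2.85% of all). With the replicate number as a block sfrp2.S was called (1 of 84, against 0.163% of all), and with pairs within the stage 4 members were (4.76%, against 0.921% of all). The difference for sfrp2.S was 1.52 larger at early neurula (SE 0.26, limma adjusted p = 0.0549 unblocked, 0.0388 with the replicate number and 0.000524 with pairs within the stage). With pairs, the difference of sp5.L was lower at early neurula by 1.14 (-1.14, SE 0.35, adjusted p = 0.00711), that of wnt11b.L by 0.72 (-0.72, SE 0.42, adjusted p = 0.0137) and that of axin2.L by 0.57 (-0.57, SE 0.30, adjusted p = 0.048). These standard errors are those of the unblocked fit, in which none of the last 3 was called.

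Averaged over the stages, limma called no member unblocked (0.0862% of all probe sets) and 12 passed an unadjusted p under 0.05 (4.6% of all). With pairs within the stage 9 were called (10.7%, against 2.85% of all), 4 higher (1.31% of all) and 5 lower (1.53% of all). Higher were sfrp2.S (0.29), dact1.L (0.25), fzd3.L (0.24) and fzd4.S (0.20), of which dact1 encodes a Dishevelled-binding modulator. Lower were sp5.L (-0.36), lef1.S (-0.26), wnt11b.L (-0.25), dact4.L (-0.21) and wnt11.S (-0.20). Among the 9, fzd4.S was dim, and fzd3.L and wnt11.S averaged only 5.42 and 5.26 over the 18 arrays. The limma adjusted p with pairs was 0.00771 for lef1.S and lay between 0.0132 and 0.0495 for the other 8. The mean of sfrp2.S combines stages of opposite sign, as given above. So do those of sp5.L (0.05, 0.01 and -1.13 in the order of the stages) and wnt11b.L (-0.12, 0.05 and -0.67). The same holds for fzd4.S (-0.02, 0.10 and 0.53) and dact4.L (-0.42, -0.26 and 0.06). dact1.L, fzd3.L, lef1.S and wnt11.S kept their sign, though lef1.S read only -0.01 at mid-gastrula.

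The widest changes over culture time exceeded the widest differences between the arms among the members, at -4.74 for frzb.S in the late step against 1.22 for sfrp2.S at early neurula. Change over time was tested in each arm as the later minus the earlier stage. Between mid-gastrula and early neurula the culture also went from 3 h at 20 °C to overnight at 14 °C. Stage, culture time and temperature cannot be told apart in that step. Between early and mid-gastrula the whole array shifted, with a median over all probe sets of -0.18 in the arm labelled RA-depleted and -0.19 in the arm labelled control, against 0.20 in both arms once each array was centred on its median. In the arm labelled RA-depleted 45 of 84 members were called (53.6%, against 50.2% of all probe sets). Of these 24 rose (12.1% of all probe sets did) and 21 fell (38.1% of all). In the arm labelled control 44 were called (49.5% of all), of which 23 rose (11.2% of all) and 21 fell (38.2% of all). Centred arrays gave 45 higher and 12 lower in the arm labelled RA-depleted and 45 and 13 in the arm labelled control. Of all 32475 probe sets, 12701 were then higher and 5657 lower in the first arm, and 12647 and 5430 in the second. Arrays quantile-normalized again gave 31 and 18 in the arm labelled RA-depleted and 26 and 18 in the arm labelled control. Over all probe sets these fits gave 6402 higher and 7435 lower, and 6121 and 7198, in the same order of arms. In both arms 22 members rose and 20 fell. The genes named below for this step kept their direction under both scalings, and 35 member calls in each arm held in every scaling. The shares of all probe sets called in both arms or in every scaling are not given here. These counts are therefore no result about the members.

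Of the 14 probe sets for secreted antagonists, 7 rose and 0 fell in explants labelled RA-depleted in the first step, and 6 rose and 0 fell in explants labelled control. Over all probe sets 12.1% rose and 38.1% fell in the first arm, and 11.2% and 38.2% in the second. These shares changed with the scaling: on centred arrays 12701 of all probe sets were higher and 5657 lower in the first arm. Counts by role are not given here for the other scalings, so the antagonists are not set apart from all probe sets. With the replicate number as a block 7 and 6 rose and 1 fell in each arm, namely frzb.S (-0.89, limma adjusted p = 0.000139 with the block and 0.0576 without, in the arm labelled RA-depleted, and -0.87, 0.000167 and 0.0623 in the arm labelled control). sfrp1.L, another Frizzled-related protein, read 7.08, 6.97 and 7.39 at early gastrula and 11.02, 10.83 and 11.22 at mid-gastrula on the arrays labelled RA-depleted. On the arrays labelled control it read 7.25, 7.03 and 7.8 and then 11.21, 10.54 and 10.99. That is a 14.7-fold rise in the arm labelled RA-depleted (3.88, SE 0.24, limma adjusted p = 9.27e-09) and an 11.7-fold rise in the arm labelled control (3.55, SE 0.24, adjusted p = 2.42e-08), after which it stayed within 0.05 of its level.

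dkk1.S rose and then fell. Its brighter probe set in explants labelled RA-depleted averaged 7.76 ± 0.54, then 9.25 ± 0.2 and then 6.91 ± 0.26 over the successive stages (SD, n = 3 each). In explants labelled control it averaged 7.68 ± 0.23, 8.95 ± 0.39 and 5.95 ± 0.74. The fall to early neurula was -2.34 (SE 0.33) in the arm labelled RA-depleted and -3.0 (SE 0.33) in the arm labelled control. The 2 steps share the mid-gastrula arrays.

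The ligand gene wnt11.S had the same course. On the arrays labelled RA-depleted it read 4.2, 4.44 and 4.31, then 6.34, 6.45 and 6.86, and then 4.67, 4.57 and 4.65 over the stages. On the arrays labelled control it read 4.46, 4.56 and 4.58, then 6.81, 6.77 and 7.08, and then 4.65, 4.56 and 4.78. It was above 6 only at mid-gastrula, with a rise of 2.23 (SE 0.12) and a fall of 1.92 (-1.92, SE 0.12) in the arm labelled RA-depleted, against 2.35 (SE 0.12) and -2.22 (SE 0.12) in the arm labelled control.

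Receptors divided between rise and fall in the first step, 8 higher and 13 lower of 25 probe sets in the arm labelled RA-depleted and 9 and 12 in the arm labelled control. Of all probe sets 12.1% rose and 38.1% fell in the first arm, and 11.2% and 38.2% in the second, shares that changed with the scaling. fzd10.S rose by 2.04 (SE 0.23) in the arm labelled RA-depleted and by 2.09 (SE 0.23) in the arm labelled control on its brighter probe set, and fzd2.S rose by 1.63 and 1.38 (SE 0.09 each). The polarity receptor gene ror2.L rose by 1.34 and 1.16 (SE 0.14 each), in the same order of arms. fzd7.L, the Frizzled gene that is maternal in Xenopus, fell on all 5 of its probe sets in both arms, by 0.69 to 1.80 (-0.69 to -1.80) in the arm labelled RA-depleted and by -0.73 to -1.84 in the arm labelled control. Its brightest probe set at early gastrula stood at 11.8, 11.65 and 11.89 there, and at 10.06, 9.76 and 10.13 at mid-gastrula, on the arrays labelled RA-depleted.

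Of the 12 probe sets for cytoplasmic components, 5 were lower and 1 higher in that step in the arm labelled RA-depleted, and 6 and 1 in the arm labelled control. This lies near the 38.1% and 38.2% of all probe sets that fell in these arms in the deposited scaling. Those shares changed with the scaling, and the counts of this role are not given here for the others. dvl3.L, a Dishevelled, fell by -1.42 (SE 0.12) in the arm labelled RA-depleted and -1.51 (SE 0.12) in the arm labelled control, and dact1.S by -1.33 and -1.37 (SE 0.21 each). The one that rose was dact4.L, at 1.23 and 1.07 (SE 0.19 each). Among nuclear effectors lef1.S rose by 1.73 (SE 0.12) in the arm labelled RA-depleted and 1.31 (SE 0.12) in the arm labelled control, and sp5.L by 1.01 and 1.06 (SE 0.25 each).

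**Figure D4:**
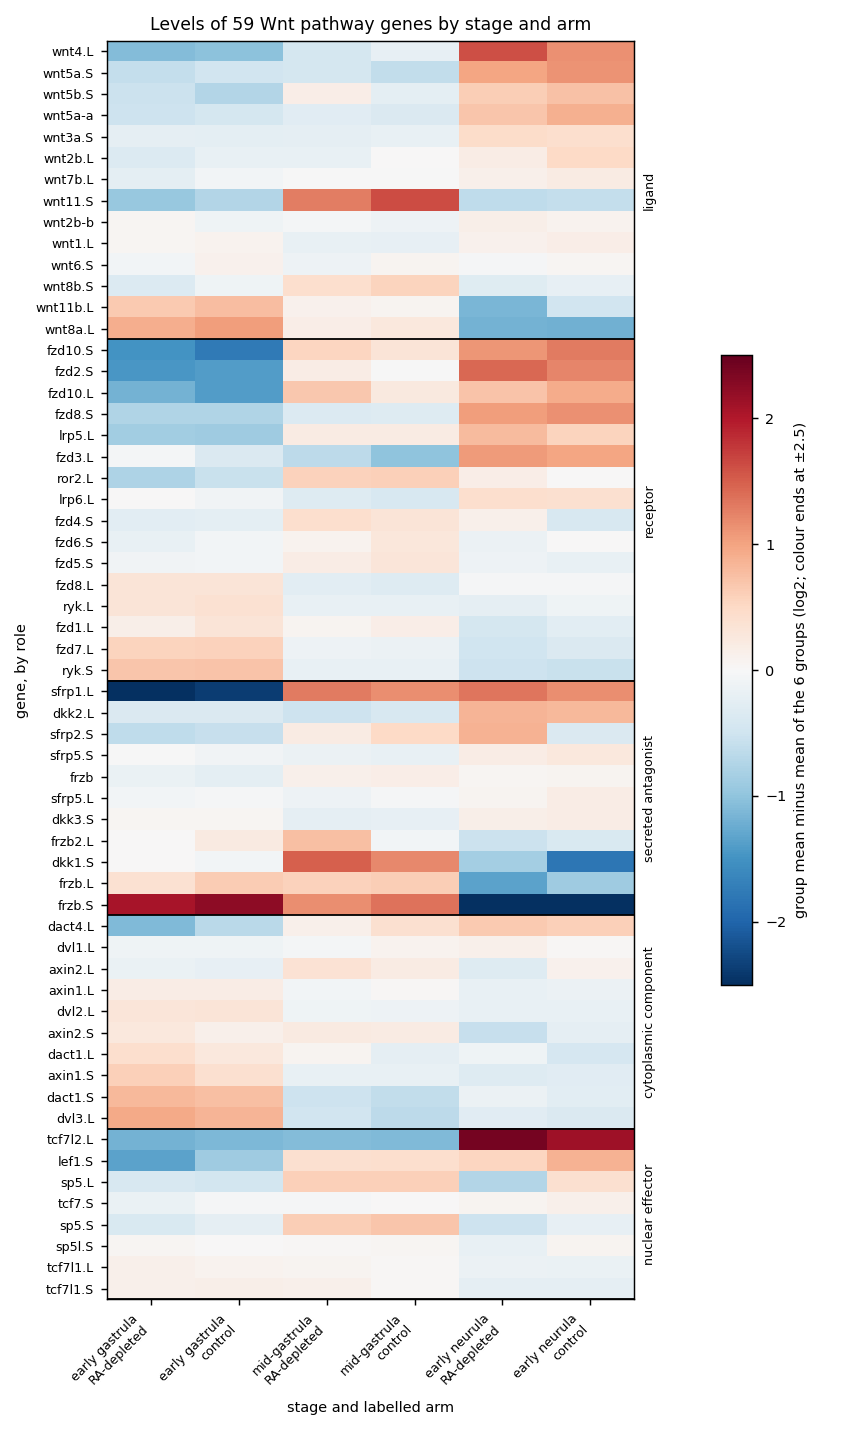
Mean log2 level of each group minus the mean over the 6 groups, for 1 probe set of each of the 59 member genes (the one with the highest mean), grouped by role, with stages from early gastrula to early neurula and the arms side by side. The arms of a stage resemble each other far more than the stages do, for example in the late fall of frzb.S and the late rise of tcf7l2.L.

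Between mid-gastrula and early neurula 46 of 84 members were called in the arm labelled RA-depleted (54.8%, against 59.1% of all probe sets), 26 higher (32.7% of all) and 20 lower (26.4% of all). In the arm labelled control 45 were called (59.3% of all), 29 higher (33.2% of all) and 16 lower (26.1% of all). Repeated quantile normalization gave 20 higher and 24 lower in the arm labelled RA-depleted and 24 and 22 in the arm labelled control. Of all 32475 probe sets, 9102 were then higher and 9784 lower in the first arm, and 9210 and 9728 in the second. Leaving out dim probe sets gave 26 calls of 52 in the arm labelled control, against 12999 of all 18223 probe sets kept. In both arms 24 members rose and 12 fell, and the share of all probe sets that did so is not given here.

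One member was called in opposite directions in this step, sfrp2.S. It rose by 0.66 (SE 0.19, limma adjusted p = 0.00662) in explants labelled RA-depleted and fell by 0.86 (-0.86, SE 0.19, adjusted p = 0.000922) in explants labelled control. Before that, between early and mid-gastrula, it had risen in both, by 0.85 and 1.09 (SE 0.19 each). The test of the difference between these late steps is that of the change of 1.52 given above.

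sp5.L fell by 1.33 (-1.33, SE 0.25, limma adjusted p = 0.000272) in explants labelled RA-depleted, against -0.19 (SE 0.25, adjusted p = 0.52) in explants labelled control. wnt11b.L fell by 1.25 (-1.25, SE 0.30, adjusted p = 0.00207) in explants labelled RA-depleted, against -0.53 (SE 0.30, adjusted p = 0.141) in explants labelled control. fzd4.S fell by 0.73 (-0.73, SE 0.20, adjusted p = 0.00606) in the arm labelled control, and read -0.30 (SE 0.20) in the arm labelled RA-depleted. Whether the arms differ in these steps is the test of the difference between stages given above, which called sp5.L and wnt11b.L with pairs within the stage and not unblocked, and did not call fzd4.S.

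Of the 18 ligand probe sets, 9 were higher and 4 lower in the late step in the arm labelled RA-depleted, and 9 and 3 in the arm labelled control, beside the 32.7% and 33.2% of all probe sets that rose. wnt4.L rose by 2.04 (SE 0.18) in explants labelled RA-depleted and 1.33 (SE 0.18) in those labelled control, to means of 6.17 ± 0.29 and 5.7 ± 0.48 (SD, n = 3 each). wnt5a.S, a ligand of the polarity branch, rose by 1.42 and 1.76 (SE 0.21 each). wnt8a.L fell in both steps, to 10.32, 10.7 and 10.31 on the neurula arrays labelled RA-depleted and 10.72, 10.52 and 10 on those labelled control, with a late change of -1.35 and -1.48 (SE 0.17 each).

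The organizer antagonist gene frzb.S had the widest late fall of all members in both arms. It read 10.6, 9.46 and 10.19 at mid-gastrula, then 5.4, 4.82 and 5.81 in the neurula explants, on the arrays labelled RA-depleted. On those labelled control it read 10.83, 9.7 and 10.31 and then 6.17, 5.19 and 5.63. It was 26.7-fold lower at early neurula in the arm labelled RA-depleted (-4.74, SE 0.37, limma adjusted p = 3.52e-08) and 24.5-fold lower in the arm labelled control (-4.62, SE 0.37, adjusted p = 4.96e-08). Its homeolog frzb.L fell less, by -1.92 and -1.50 (SE 0.24 each).

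tcf7l2.L, a Tcf gene of the beta-catenin branch, had the widest late rise. On 1 of its 5 probe sets (Xl2.51414.2.A1_at) it read 3.5, 3.37 and 3.43 at mid-gastrula, then 6.68, 6.96 and 7.05 in the neurula explants, on the arrays labelled RA-depleted, and 3.35, 3.39 and 3.46 and then 6.58, 6.56 and 6.74 on those labelled control. It rose by 3.46 (SE 0.10) in the arm labelled RA-depleted and by 3.23 (SE 0.10) in the arm labelled control. A second probe set rose by 3.58 and 3.31 (SE 0.15 each), whereas the other 3 gave smaller values, the lowest being 0.19 in the arm labelled RA-depleted and 0.30 in the arm labelled control. The 5 probe sets shared a direction in the late step and differed in size. fzd3.L rose by 1.73 and 2.0 (SE 0.12 each), and fzd2.S by 1.26 and 1.24 (SE 0.09 each).

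Of the 59 genes, 10 pairs of homeologs were both measured. At early neurula 8 of the 10 had the same sign of arm difference, and 6 of 10 did at each gastrula stage, with no pair in which both were called. The sizes differed most for sp5, at -1.13 for sp5.L and -0.31 for the dim sp5.S. Over time, both members of the pair were called for 3 pairs in each step in the arm labelled RA-depleted, and for 4 pairs and then 3 in the arm labelled control. The exception in sign was fzd8, a receptor of the anterior embryo, in the first step: fzd8.L fell by -0.58 in the arm labelled RA-depleted and -0.65 in the arm labelled control (SE 0.09 each), whereas the brightest probe set of fzd8.S rose by 0.41 and 0.43 (SE 0.11 each). fzd8.L was dim, and the 4 probe sets of fzd8.S did not agree, 3 of them lying below 0 in that step in both arms. frzb.L and frzb.S also differed in size in the late step, by 2.83 in the arm labelled RA-depleted and 3.11 in the arm labelled control, on the log2 scale. Over the time steps 49.5% to 59.3% of all probe sets were called. The shares over all homeolog pairs are not given here, so the counts of pairs are no result about the members.

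**Figure D5:**
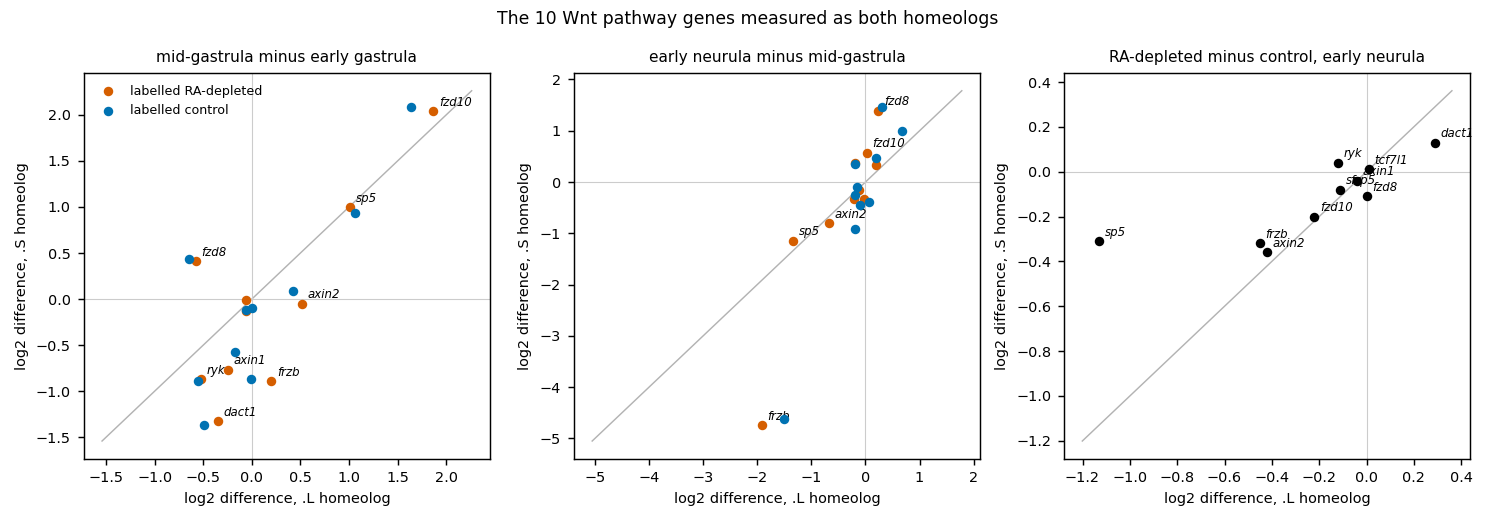
Log2 difference of the .L homeolog against that of the .S homeolog for the 10 pairs, in panels for the time steps and for the early neurula difference between the arms, with a line of equality. frzb lies far below the origin on the .S axis in the late step (-4.74 and -4.62), and sp5 lies apart in the neurula panel (-1.13 for .L and -0.31 for .S).

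Other genes of the Wnt pathway gave a wider view. A list of 88 symbols, from further secreted modulators to degradation complex members, polarity genes and known targets, had 62 measured as 140 probe sets of 86 genes. At early neurula 4 of the 140 were higher and 0 were lower by limma, against 0.425% of all probe sets called in either direction, with a median of -0.06 and 49 above 0. The 4 belonged to 2 genes. wif1.S, which encodes the Wnt inhibitory factor, a secreted antagonist, read 6.96, 7.02 and 6.57 on the arrays labelled RA-depleted and 6.22, 5.29 and 6.01 on those labelled control (1.01, SE 0.19, adjusted p = 0.0219). A second probe set gave 0.93 (SE 0.17, adjusted p = 0.0203), and the other 2 read 0.52 and 0.13 and were not called.

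prickle1.L, a core gene of planar cell polarity, read 10.43, 10.53 and 10.81 in explants labelled RA-depleted and 9.64, 9.39 and 10.07 in those labelled control (0.89, SE 0.14, limma adjusted p = 0.00688). Its other probe set gave 0.76 (SE 0.15, adjusted p = 0.0408). Fitting the neurula arrays alone ended all 4 calls (adjusted p between 0.596 and 0.767). Leaving out array 1 or array 2 labelled RA-depleted ended both wif1.S calls, and the second prickle1.L call was lost in 5 of the 6 leave-outs.

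With pairs within the stage 9 probe sets of this list were higher (2.47% of all probe sets were) and 5 lower (1.86% of all) at early neurula, against 0 called in either direction at early gastrula and 2 higher at mid-gastrula. Added to the higher ones were the homeobox genes meis3.L and meis3.S, of which meis3 is a Wnt-regulated hindbrain gene in Xenopus, prickle1.S and 1 of the 2 probe sets of csnk1g3.L, for a casein kinase (0.30, SE 0.10). The lower ones were 2 probe sets of bcl9.L, for a beta-catenin cofactor, 1 each of sdc4.L (-0.30) and cer1.S (-0.34), for the secreted antagonist Cerberus, and tbxt.S, the Brachyury gene and a Wnt target of mesoderm (-0.55, SE 0.21, limma adjusted p = 0.0414 with pairs and 0.682 unblocked). Unblocked, 33 of the 140 rose and 46 fell between early and mid-gastrula in the arm labelled RA-depleted (12.1% and 38.1% of all probe sets), and 30 and 45 in the arm labelled control (11.2% and 38.2% of all). In the late step 44 rose and 43 fell in the arm labelled RA-depleted (32.7% and 26.4% of all), and 48 and 42 in the arm labelled control (33.2% and 26.1% of all).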

How the data were processed

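Affymetrix arrays of 18 samples were used. The deposited log2 intensities were made by the authors with affy's RMA, as named in the submitters' processing notes; versions and which arrays were normalized together are not given in the sources used here. Of 32635 probe sets, 160 controls were left out and 32475 were tested. Symbols came from the platform annotation, with 15495 probe sets holding 1 symbol, 279 several and 16701 none, and 79 of the 84 member probe sets matched a gene of the RefSeq table of assembly Xenopus_laevis_v10.1.

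The 6 groups were fitted together on the log2 values with limma 3.58.1 (R 4.3.3, lmFit and eBayes), without a block, and Benjamini-Hochberg adjusted p under 0.05 over all probe sets was a call. Figures were drawn with matplotlib 3.10.9. Same-numbered arrays of the 2 arms deviated together from their group means within a stage (r = 0.637 to 0.838) and arrays of other numbers did not (-0.481 to -0.113), so the numbers pair the arrays. Across stages same-numbered arrays also deviated together (r = 0.359 to 0.687, against -0.378 to -0.134), and the time steps are given without a block unless said. This pairing comes from the values; the labels do not say what a number shares. Fits with the replicate number as a block, and with stage and number as 9 blocks, were alternatives, as were repeated quantile normalization, median centring, leaving out dim probe sets, other variance models, the compared arrays alone and leaving out each array. With 3 arrays per group, their number limits the precision, and p-values measure only the spread between these arrays. The fits were also run on simulated data with a shared effect per stage and number built in. Such data cannot check the pairing itself, and the outcome is not given here.

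Members and gene lists were chosen with earlier results of these data known. Text names every member with a call in an arm comparison or groups without overlap, the widest time changes, and a fixed panel of 19 symbols. The list of other pathway genes holds the symbol tcf3, now also that of an E protein.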

Additional observations from a re-analysis of the deposited data

Results flagged for a closer look

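The change of the arm difference (labelled RA-depleted minus labelled control) between mid-gastrula and early neurula was tested in limma. Unblocked, no member was called (0.0585% of all probe sets). With pairs within the stage 4 members were called (4.76%, against 0.921% of all). For sfrp2.S the arm difference was 1.52 larger at early neurula, called with the replicate number as a block and with pairs within the stage. For sp5.L (-1.14), wnt11b.L (-0.72) and axin2.L (-0.57) it was lower, called with pairs within the stage alone.

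In 2 of the 84 probe sets the arms did not overlap at each of 2 stages and stood in opposite order. The share of all probe sets with such a reversal is not given here. At single stages, 2.16% (early gastrula) to 4.4% (early neurula) of all probe sets were higher without overlap. Lower without overlap were 2.75% (mid-gastrula) to 5.1% (early neurula). sfrp2.S differed by 1.22 at early neurula and -0.30 at mid-gastrula, which is the change tested above. The probe set Xl2.2755.2.S1_at of sp5l.S differed by 0.10 at early gastrula and -0.24 at early neurula. The difference between those 2 stages was not tested. The other probe sets of sp5l.S read 0.04 and -0.01 at early gastrula, where their arms overlapped, so the reversal is not shown for the gene. With 3 arrays in a group, no single array was tested for standing apart from its group.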

How the results depend on the processing

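The count of members called at early neurula was 1, with 2 under the replicate block, 12 with pairs within the stage, 2 with quantile normalization repeated, 2 with trended and robust variance and 0 with the compared arrays only; leaving out 1 array gave 1 to 4, with 2 without array 2 labelled RA-depleted and 4 without array 3 labelled control. Averaged over the stages the count was 9 with pairs within the stage, against 0. For the change of the arm difference between mid-gastrula and early neurula the count was 0, with 1 under the replicate block, 4 with pairs within the stage, 1 with trended and robust variance, and 0 to 1 leaving out 1 array. Leaving out dim probe sets gave 26 against 45 late calls in explants labelled control, since fewer were tested. For the other settings the cause was not tested. The calls that the replicate number as a block added include those of sp5.L at early neurula, sfrp2.S between stages and frzb.S in the first step. In the first step it gave 53 and 49 member calls, in the arms labelled RA-depleted and control, against 45 and 44 unblocked. In the late step it gave 50 in each arm, against 46 and 45. Over all probe sets calls rose too, from 16289 and 16060 to 19430 and 19269 in the first step. In the late step they rose from 19186 and 19252 to 21731 and 21911. Among the single results counted below, which leave out tests between stages, the replicate number as a block changed no call but that of sp5.L (-1.13).

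Differences at early neurula that turned sign were all uncalled, and those of sp5.S (-0.31) and fzd10.L (-0.22) were not small. With centred arrays these were fzd8.L (-0.01), tcf7l1.S (-0.01) and lrp6.L (0.0), and with repeated quantile normalization frzb (0.0) and tcf7l1.S (-0.01). Leaving out 1 array gave -0.75 to 0.08 for sp5.S, -0.18 to 0.18 for wnt8a.L, -0.33 to 0.14 for wnt5a.S, -0.02 to 0.13 for wnt3a.S, -0.26 to 0.02 for fzd7.L, -0.05 to 0.07 for fzd8.L and -0.46 to 0.05 for fzd10.L. It gave -0.10 to 0.06 for frzb, -0.10 to 0.18 for tcf7l1.L, -0.13 to 0.22 for tcf7l1.S, -0.09 to 0.36 for dact1.S, -0.04 to 0.04 for lrp6.L, -0.09 to 0.09 for dvl2.L and -0.03 to 0.12 for ryk.S. Of 1234 alternative values for 92 single results, 1174 kept their direction and side of the threshold, 15 lost and 11 gained a call, and 34 turned. Signal over background limits the 32 dim member probe sets.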
